A study of Mus musculus with 6 samples.

Results

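The subject is a set of 10 heat shock and cochaperone genes, picked by symbol, among the 53715 genes in the table of estimated counts that the authors deposited. They are Hspa1a, Hspa1b, Hspa8, Hsp90aa1, Hsph1, Dnaja1, Dnajb1, Bag3, Hspb1 and Cryab. All 10 had a row in the table and all 10 passed the filter on low counts. RNA was measured by stranded total RNA sequencing in cells that the labels call pericytes, a mural cell of small vessels. They were sorted for surface CD146 and against CD45, an antigen of leukocytes, and CD31, an antigen of endothelium. In 3 stimulated mice, electrical pulses had driven the lower leg muscles through 40 contractions (20 eccentric and 20 concentric) in about 10 minutes, and the gastrocnemius-soleus muscles were taken 3 hours later. The 3 sham mice had received no stimulation. All 6 animals were wild-type C57BL/6J males, 14 weeks old, with no transgene, and the stated group sizes give 1 mouse per library.

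Heat shock proteins are chaperones that hold or refold unfolded proteins. The HSP70 proteins work in a cycle that HSP40 (DnaJ) cochaperones start and that nucleotide exchange factors such as HSP110 and the BAG proteins reset, HSP90 takes over part of their clients, and small heat shock proteins hold unfolded chains without using ATP. The inducible members are switched on by the transcription factor HSF1, which binds repeats of the letters GAA and TTC, called heat shock elements, near the genes' starts. In muscle, exercise is known to raise HSP70, and the small heat shock proteins are abundant in striated and smooth muscle. Heat shock and immediate early genes are also known to rise while tissue is taken apart for cell sorting, and since every library came from sorted cells the part of this in their levels was not tested.

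Hspa1a and Hspa1b, which encode the same inducible HSP70, are printed first because the libraries measure them almost as 1 gene. Their 250 bases before the start, from RefSeq (GRCm38.p6), are given on the strand of the genes, with the 8-letter core of a heat shock element in capitals (chr17:34972157-34972406 and chr17:34959239-34959488, both on the minus strand).
Hspa1a: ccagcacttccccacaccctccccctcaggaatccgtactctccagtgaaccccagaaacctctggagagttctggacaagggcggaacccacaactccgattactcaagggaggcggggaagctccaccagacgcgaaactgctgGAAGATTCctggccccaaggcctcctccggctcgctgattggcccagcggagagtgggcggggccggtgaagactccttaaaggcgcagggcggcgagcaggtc
Hspa1b: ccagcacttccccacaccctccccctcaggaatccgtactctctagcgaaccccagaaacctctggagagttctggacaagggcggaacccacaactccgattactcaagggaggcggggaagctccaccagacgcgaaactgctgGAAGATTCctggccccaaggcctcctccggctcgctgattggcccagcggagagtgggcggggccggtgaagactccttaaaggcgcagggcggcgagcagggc
The 2 windows differed at 3 of 250 bases (98.8% identical). Counted from 1 at the 5′ end, with Hspa1a first, the differences were C44T, T47C and T249G. The core lay 104 bases before both starts.

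The core was searched as GAANNTTC or TTCNNGAA, which covers both strands, in RefSeq windows of 250 bases before to 50 after each start. Such windows were matched for 7 of the 10 genes, 11 windows in all. Of those 7 genes, 6 held the core in at least 1 window (Hspa1a, Hspa1b, Hsph1, Dnaja1, Bag3 and Hspb1), against 16.97% of all 27025 genes with a window. Dnajb1 held it in neither of its windows. The form with 3 alternating units, in which another GAA or TTC follows the core at the same spacing, was found in Hsph1, as TTCTGGAAAGTTC at chr5:149636288-149636300 just after the start, and in 0.662% of all genes; it contains a pair of overlapping cores. In Bag3 the core GAAGTTTC lay 42 bases after the start. The upstream cores of Hspb1, Hsph1 and Dnaja1 are shown for comparison, the first on the plus strand at chr5:135887769-135887868, the second on the minus strand at chr5:149636351-149636380 and the third on the plus strand at chr4:40722333-40722362.
Hspb1: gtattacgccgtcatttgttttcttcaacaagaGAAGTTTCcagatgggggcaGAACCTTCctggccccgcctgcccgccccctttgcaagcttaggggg
Hsph1: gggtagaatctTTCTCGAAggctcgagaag
Dnaja1: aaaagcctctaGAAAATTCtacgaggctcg
A match is a description of letters and not evidence that a factor was bound.

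The libraries held 17520338 to 23709220 estimated reads. Unless summed reads are named, the values in CPM below are the deposited counts relative to the library total, scaled between libraries by TMM. Those counts follow each gene's summed TPM from library to library, so short transcripts weigh heavily in their changes. The sorted marker Mcam, which encodes CD146, averaged 36.4 ± 15.6 CPM (SD, n = 3) in stimulated libraries and 69.3 ± 33.3 CPM (SD, n = 3) in sham libraries. Pecam1, which encodes CD31, averaged 463 ± 101 CPM and 850.45 ± 386 CPM (SD, n = 3 each), and Ptprc, which encodes CD45, 1017 ± 24.5 CPM and 624 ± 373 CPM (SD, n = 3 each), so that RNA of both excluded antigens exceeded that of Mcam. The values therefore belong to a mixture, in which fewer cells of a type and less RNA per cell cannot be told apart. Sham replicate 2 stood apart, with a mean level of the 12 lymphocyte markers of 3.45 log2 CPM where the remaining libraries had 5.80 to 6.41, and of the 13 endothelial markers of 8.83 log2 CPM, where they had 6.81 to 8.10. Values without that library stand beside the results below that it moved most.

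Several heat shock genes took a large share of the reads in both groups, and none of the 10 differed between stimulated and sham libraries by the test. The 10 genes together took 1.46, 1.77 and 1.53% of the estimated reads in stimulated libraries and 1.52, 1.19 and 1.79% in sham libraries. By mean CPM, Hspa1b ranked 16, Hspa1a 18, Hspa8 22, Hsp90aa1 27, Hsph1 55, Dnaja1 86 and Dnajb1 111 among all genes of the table. Hspb1 (rank 883), Bag3 (2086) and Cryab (14128) had far fewer reads. By mean TPM, which allows for transcript length, the ranks were 145 for Hspa8, 230 for Hsph1, 235 for Hsp90aa1, 276 for Hspa1b, 330 for Dnaja1, 357 for Hspa1a, 1091 for Hspb1 and 1507 for Dnajb1, and 7549 and 14549 for Bag3 and Cryab. The quasi-likelihood test of edgeR called 0 of the 10 genes at a Benjamini-Hochberg adjusted p of 0.05, as it called 0 of 26559 genes (0%) in all. DESeq2 and limma voom also called 0 of the 10, although DESeq2 called 74 higher and 153 lower genes in all. At an unadjusted p under 0.05, 1 of the 10 genes, Hspb1, was lower and 0 were higher, where 7.05% of all genes tested were under it, 2.64% higher and 4.41% lower. By sign, 5 had a log2 fold change above 0 and 5 below, with a median of 0.03, where 48% of all genes lay above 0 and 52% below, and their median was -0.02. Without sham replicate 2, 3 of the 10 lay above 0 and their median was -0.08. Groups that did not overlap in CPM were met in 0 of the 10 genes, against 12% of all genes tested.

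**Figure D1:**
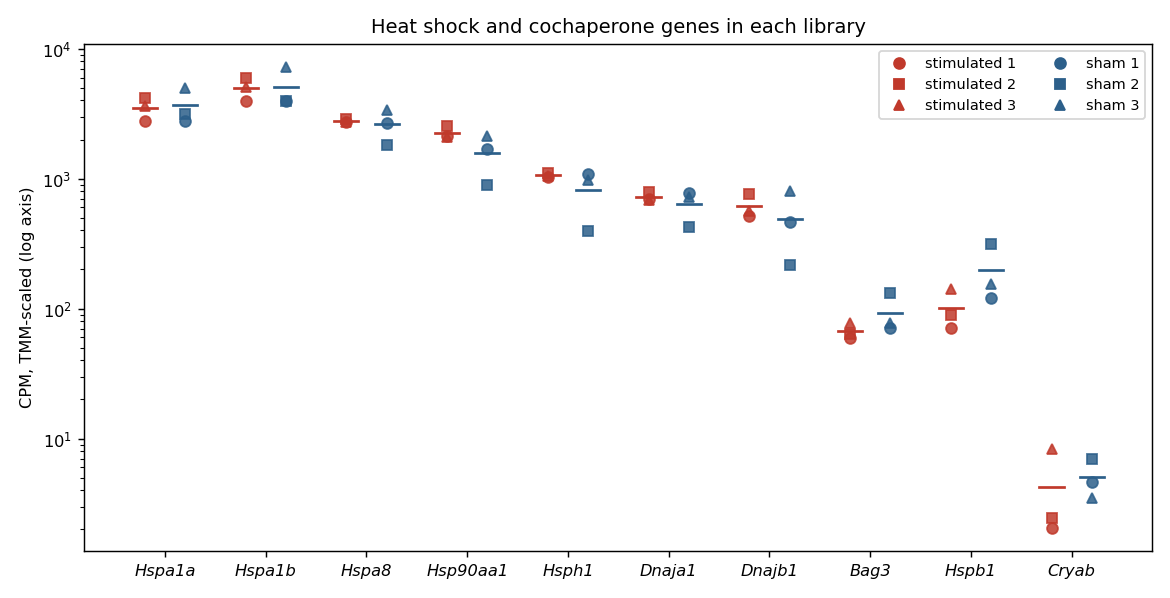
CPM of each of the 10 genes (horizontal axis) on a logarithmic vertical axis, with 1 point per library, stimulated left of sham, and a bar at the group mean. The 3 stimulated and 3 sham libraries overlap in every gene, and sham replicate 2 is the lowest library for Hspa8, Hsp90aa1, Hsph1, Dnaja1 and Dnajb1 and the highest for Bag3 and Hspb1.

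Hspa1a (ENSMUSG00000091971.3, chromosome 17, 34969190 to 34972156, minus strand) had 2797, 4164 and 3612 CPM in stimulated libraries 1 to 3, against 2789, 3156 and 5029.9 CPM in sham libraries 1 to 3. Its neighbour Hspa1b (ENSMUSG00000090877.3, chromosome 17, 34956436 to 34959238, minus strand) had 3943, 5952 and 5046 CPM in stimulated libraries, against 3976, 3955.5 and 7229.9 CPM in sham libraries. Both genes were highest in sham replicate 3 and second highest in stimulated replicate 2, and their groups overlapped almost completely. The log2 fold change, stimulated over sham, was -0.05 (SE 0.34, 95% interval -0.82 to 0.71) for Hspa1a, with an adjusted p of 0.996 from edgeR. For Hspa1b it was -0.02 (SE 0.35, 95% interval -0.82 to 0.78), with an adjusted p of 0.998 from edgeR. The intervals leave room for a change of either sign, and the point value turned positive without sham replicate 3 (0.26 for Hspa1a and 0.34 for Hspa1b) and without stimulated replicate 1 (0.12 for Hspa1a and 0.15 for Hspa1b).

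The split of reads between these 2 genes is uncertain. Of the 31-base words in the transcript of Hspa1a, 63.8% also occur in that of Hspa1b, and 67.6% the other way. Hspa1b took 58.5, 58.8 and 58.3% of the pair's count in stimulated libraries and 58.8, 55.6 and 59.0% in sham libraries. With both counts added before the test, the log2 fold change was -0.03 (SE 0.35). The overlapping gene Gm20481, which lies on the opposite strand within Hspa1a, had at most 5.14 estimated counts in any library.

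The deposited TPM divide by transcript length and are not scaled further between libraries. From library to library they differ from CPM by a factor that is common to all genes checked. They are thus no second measurement of the contrast, and length does not alter it. On the TPM scale Hspa1a stood at 32.1, 39.6 and 39.0 TPM in stimulated libraries and at 43.0, 55.8 and 45.0 TPM in sham libraries, and these ranges did not overlap. Those of Hspa1b, 51.5, 64.3 and 61.9 TPM in stimulated and 69.8, 79.6 and 73.7 TPM in sham libraries, did not overlap either. On this scale the groups did not overlap in 11.5% of genes, 9.73% lower and 1.79% higher. The median difference of all genes tested was -0.20 in log2(TPM + 0.1). The added 0.1 draws the differences of scarce genes toward 0, so this median understates the shift of abundant genes. The log2 differences of -0.37 for Hspa1a and -0.33 for Hspa1b are therefore not placed against that median. On this scale limma called neither gene (adjusted p of 0.794 and 0.799). With TMM scaling, limma voom gave -0.026 for Hspa1a and 0.018 for Hspa1b. TPM is used below only to order genes within a scale per length.

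Hspa8 encodes HSC70, the constitutive HSP70 that also uncoats clathrin vesicles (ENSMUSG00000015656.17, chromosome 9, 40800984 to 40810087, plus strand). It had 2737, 2895 and 2727 CPM in stimulated libraries, against 2688, 1802 and 3386 CPM in sham libraries. The stimulated libraries lay close together, inside the span of the sham libraries. Its log2 fold change was 0.09 (SE 0.32, 95% interval -0.63 to 0.80), and -0.12 without sham replicate 2. Part of its sequence recurs in processed copies, 43.5% of its 31-base words being found in transcripts of other genes. The copy that shares most, Gm15459, had 0.477 to 0.554% of the count of Hspa8.

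Hsp90aa1 encodes the inducible cytosolic HSP90 alpha (ENSMUSG00000021270.13, chromosome 12, 110690605 to 110702728, minus strand). It had 2118, 2543 and 2088 CPM in stimulated libraries, against 1677, 898 and 2133 CPM in sham libraries. Sham replicate 3 lay within the stimulated range and the other 2 sham libraries below it. The log2 fold change of 0.52 (SE 0.36, 95% interval -0.29 to 1.33, edgeR adjusted p = 0.876) was the highest of the 10 genes and stayed above 0 with each library left out, from 0.24 without sham replicate 2 to 0.82 without sham replicate 3. From reads summed over its transcripts it was 0.37 (SE 0.37). Those reads gave 2161, 2557.5 and 1954 CPM in stimulated libraries, against 2047, 926 and 2177 CPM in sham libraries. By them, sham replicate 2 alone lay below the stimulated range. A processed copy, Gm12346, shares 46.7% of the 31-base words of Hsp90aa1 and had 0.347 to 1.05% of its count.

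Hsph1 encodes HSP110, which exchanges the nucleotide of HSP70 and helps to dissolve aggregates (ENSMUSG00000029657.15, chromosome 5, 149614287 to 149636376, minus strand). It had 1033, 1104 and 1056 CPM in stimulated libraries, against 1096, 393 and 975 CPM in sham libraries. Only sham replicate 2 lay clearly away from the rest. The log2 fold change was 0.37 (SE 0.38, 95% interval -0.49 to 1.24), and 0.05 without sham replicate 2. None of its 31-base words recur in transcripts of another gene.

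The HSP40 cochaperones hand clients to HSP70 and start its ATP hydrolysis. Dnaja1 (ENSMUSG00000028410.13, chromosome 4, 40722150 to 40737149, plus strand) had 692, 795 and 681 CPM in stimulated libraries, against 775, 424 and 721 CPM in sham libraries. Dnajb1, the HSP40 most often induced together with HSP70 (ENSMUSG00000005483.10, chromosome 8, 83608193 to 83612653, plus strand), had 519, 757 and 564 CPM in stimulated libraries, against 464, 217 and 798 CPM in sham libraries. In both genes sham replicate 2 was lowest and the other sham libraries overlapped the stimulated ones. Their log2 fold changes were 0.18 (SE 0.30, 95% interval -0.51 to 0.86) for Dnaja1 and 0.32 (SE 0.44, 95% interval -0.68 to 1.31) for Dnajb1. Without sham replicate 2 they were -0.042 for Dnaja1 and -0.040 for Dnajb1, and Dnajb1 had 0.86 without sham replicate 3. The end of Dnaja1 overlaps Smu1 on the opposite strand, and 6.63% of its 31-base words match that gene read in reverse. On the same strand, 11.2% of the words of Dnaja1 occur in Gm15542, which had 0.491 to 4.38% of the count of Dnaja1.

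Bag3 encodes a BAG cochaperone that links HSP70 to small heat shock proteins and to autophagy, and that is needed in contracting muscle (ENSMUSG00000030847.8, chromosome 7, 128523616 to 128546981, plus strand). It had 59.9, 64.2 and 77.5 CPM in stimulated libraries, against 70.6, 132 and 77.2 CPM in sham libraries. Sham replicate 2 was the highest library and the others lay within a narrow span. The log2 fold change was -0.47 (SE 0.29, 95% interval -1.14 to 0.19), and -0.13 without sham replicate 2.

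Hspb1 encodes HSP25, the mouse counterpart of human HSP27, a small heat shock protein that binds actin filaments (ENSMUSG00000004951.10, chromosome 5, 135887919 to 135889563, plus strand). It had 70.6, 88.7 and 143 CPM in stimulated libraries, against 121, 316 and 155 CPM in sham libraries. Stimulated replicates 1 and 2 were the lowest libraries and sham replicate 2 the highest, with stimulated replicate 3 between the sham libraries. The log2 fold change was -0.97 (SE 0.41, 95% interval -1.91 to -0.03), with an unadjusted p of 0.0436 and an adjusted p of 0.696 from edgeR. It lay between -0.45 without sham replicate 2 and -1.31 without stimulated replicate 3. A processed copy, Hsp25-ps1, holds 52.3% of the 31-base words of Hspb1. Its estimated count was 2.80% of that of Hspb1 in 1 library and 57.0% in another, so the division between them is uncertain. Added together, Hspb1 and Hsp25-ps1 had 87.3, 139 and 147 CPM in stimulated libraries and 155, 399 and 229 CPM in sham libraries. These sums did not overlap, where 5.89% of all genes tested were lower without overlap. Their log2 fold change was -1.07 (SE 0.38, edgeR adjusted p = 0.633). The sum was chosen after the values were seen, and it was not fitted without sham replicate 2, its highest library.

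Cryab encodes alpha B-crystallin, a small heat shock protein of lens and striated muscle (ENSMUSG00000032060.10, chromosome 9, 50751325 to 50756636, plus strand). It was scarce, with 2.05, 2.46 and 8.31 CPM in stimulated libraries, against 4.66, 6.99 and 3.47 CPM in sham libraries, from 39.1 to 188 estimated counts. The stimulated libraries held both the lowest values and the highest. The log2 fold change of -0.23 (SE 0.55, 95% interval -1.48 to 1.02) changed sign when stimulated library 1 (0.16), stimulated library 2 (0.05) or sham library 2 (0.09) was left out, and was -1.15 without stimulated replicate 3. In stimulated replicate 3 the tenocyte markers summed to 334 CPM against 38.2 and 77.4 CPM in the other stimulated and 141 to 192 CPM in the sham libraries. The 14 myofibre markers summed to 178 CPM in that library against 60.9 and 61.2 CPM in the other stimulated and 42.8 to 59.4 CPM in the sham libraries. Satellite cell (58.4 CPM), Schwann cell (80.4 CPM) and erythrocyte (383 CPM) markers also had their highest sums in that library, and the remaining marker lists did not. The part of these cells in the level of Cryab was not tested. Hspb2, which starts opposite to Cryab and overlaps it, had 3.68 to 17.6 estimated counts.

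**Figure D2:**
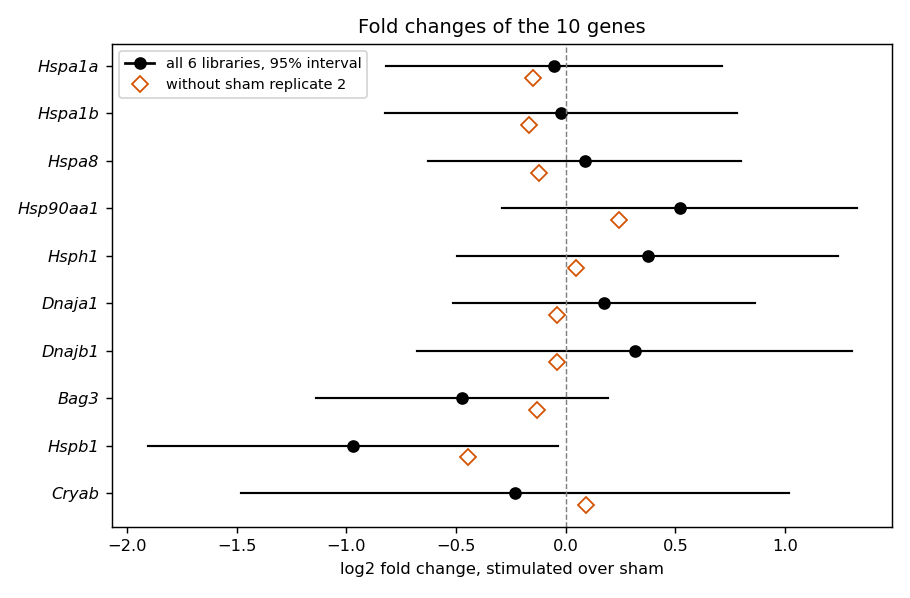
Log2 fold change of each of the 10 genes, stimulated over sham (horizontal axis), with its 95% interval from all 6 libraries (black) and the value without sham replicate 2 (open diamonds). The interval of Hspb1, -1.91 to -0.03, is the 1 that does not include 0, and the diamonds lie nearer to 0 than the points for Hsp90aa1, Hsph1, Dnaja1, Dnajb1, Bag3, Hspb1 and Cryab.

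Per length, the genes ordered differently than by count. Hspa8 was highest, with a mean of 175 TPM in stimulated and 206 TPM in sham libraries. Hsph1 (100.45 and 97.0 TPM), Hsp90aa1 (99.7 and 85.4 TPM) and Hspa1b (59.3 and 74.3 TPM) came next. The stimulated values of Hsph1, 93.6 to 106 TPM, and of Hsp90aa1, 94.9 to 102 TPM, overlapped, so that the order of this pair is within the spread. Dnaja1 averaged 46.3 and 52.4 TPM and Hspa1a 36.9 and 48.0 TPM. Then followed Dnajb1 with 6.74 and 6.36 TPM, Hspb1 with 4.94 and 13.7 TPM, Bag3 with 0.648 and 1.25 TPM and Cryab with 0.214 and 0.355 TPM, each in stimulated and sham libraries. These TPM sums weigh short transcripts heavily. The deposited gene counts followed TPM times a factor per gene, so changes in CPM between libraries carry the same weighting. Reads summed over transcripts do not, and gave Hsph1 a log2 fold change of 0.31 (SE 0.37). In Hsph1 a processed transcript of 254 bases (ENSMUST00000201666.1) held 2.62 to 3.14% of the reads but 56.0 to 61.6% of the TPM, and in Hspa8 the main coding transcript held 19.4 to 23.6% of the TPM.

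The 10 genes did not move together across libraries. Between the highest and the lowest library, CPM differed 1.80-fold for Hspa1a and 1.83-fold for Hspa1b, 1.88-fold for Hspa8 and Dnaja1, 2.81-fold for Hsph1, 2.83-fold for Hsp90aa1, 3.67-fold for Dnajb1, 2.21-fold for Bag3, 4.47-fold for Hspb1 and 4.04-fold for Cryab. In sham replicate 2, Dnajb1 stood at 0.344 times the mean of the other sham libraries, Hsph1 at 0.38 times, Hsp90aa1 at 0.472 times, Dnaja1 at 0.567 times and Hspa8 at 0.593 times. Hspa1a and Hspa1b stood at 0.807 and 0.706 times that mean. Bag3 (1.79 times), Cryab (1.72 times) and Hspb1 (2.29 times) were instead above it in the same library. Hspa8, Hsp90aa1, Hsph1, Dnaja1 and Dnajb1 were thus at their lowest of the 6 libraries there, and Bag3 and Hspb1 at their highest, in the library with the lowest lymphocyte and highest endothelial marker level. Hspa1a was not: sham replicate 2 lay above sham replicate 1 and stimulated replicate 1 for that gene.

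**Figure D3:**
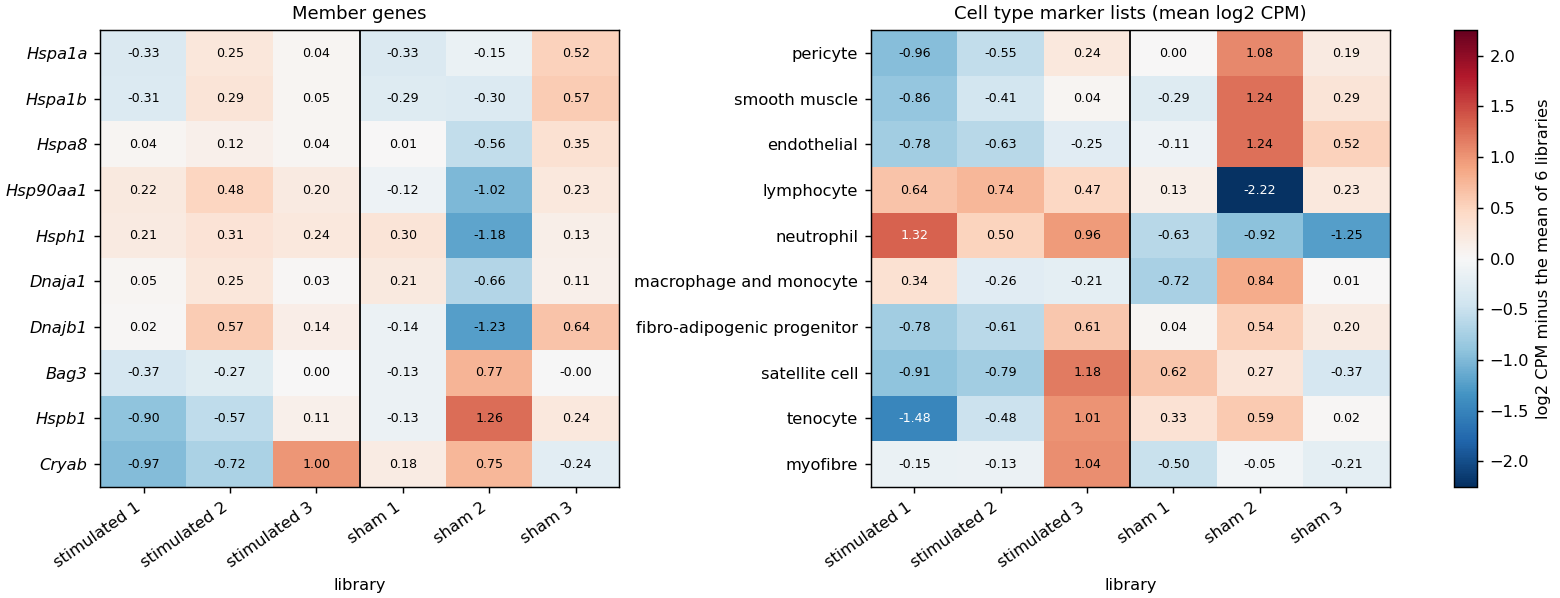
Log2 CPM of each gene (left) and mean log2 CPM of cell type marker lists (right) in each library, minus the mean of the 6 libraries, stimulated left of the black line and sham right of it. In sham replicate 2 Dnajb1 is at -1.23, Hsph1 at -1.18 and Hsp90aa1 at -1.02, Bag3 at 0.77 and Hspb1 at 1.26. In the same library the lymphocyte list is at its lowest. The pericyte, smooth muscle and endothelial lists, and the macrophage and monocyte list, are at their highest there.

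Marker lists of mural cells, and of endothelium, lymphocytes and neutrophils, which the sort against CD31 and CD45 should remove, differed between the same libraries. The endothelial markers had a log2 fold change below 0 in 13 of 13 genes and summed to 2228 to 3320 CPM in stimulated and 3624 to 9115 CPM in sham libraries. Pericyte markers had values below 0 in 10 of 11, at 182 to 413 CPM summed in stimulated and 336 to 705 CPM in sham libraries. Smooth muscle markers had them in 8 of 8, at 103 to 254 CPM and 176 to 469 CPM summed in stimulated and sham libraries. Without sham replicate 2, 2 of these 8 were above 0, and the medians were -0.39 instead of -1.04 for smooth muscle, -0.51 instead of -0.93 for pericyte and -0.80 instead of -1.19 for endothelial markers. Lymphocyte markers had values above 0 in 12 of 12, at 1068 to 1349 CPM summed in stimulated and 157 to 1314 CPM in sham libraries, but in 8 of 12 without sham replicate 2, where the median was 0.26 instead of 0.66. Neutrophil markers had them above 0 in 9 of 9 tested genes, at 127 to 209.6 CPM summed in stimulated and 47.8 to 63.7 CPM in sham libraries. Of these 5 lists the neutrophil marker Ly6g, which was not tested, was at 0 in sham replicate 3 and no other marker was at 0 in any library, and edgeR called 0 of their genes by adjusted p. Macrophage and monocyte markers, also of leukocytes, went otherwise. They summed to 471 to 746 CPM in stimulated and 330 to 1090 CPM in sham libraries. Their values lay above 0 in 2 of 11 rows, with a median of -0.32. Without sham replicate 2, 9 of 11 lay above 0, with a median of 0.20. The part of all these cell types in the levels of Hspb1, Bag3 and the other members was not tested.

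Transcripts of the 7 genes with more than 1 annotated isoform were described by their share of the gene's estimated reads. Among 25 transcripts with a mean share of at least 5%, 6 had shares that did not overlap between the groups, 3 higher and 3 lower, where 10.3% of 31139 such transcripts of all genes did, 5.57% higher and 4.72% lower. Shares within a gene add up to 100%, so a transcript that is higher lowers another. Hspa8-208, a retained-intron transcript (ENSMUST00000149936.1, chromosome 9, 40801276 to 40805199), took 18.7, 20.3 and 17.04% of the reads of Hspa8 in stimulated libraries, against 11.9, 12.7 and 13.1% in sham libraries. The main coding transcript, Hspa8-202 (ENSMUST00000117557.7), took 57.9, 54.1 and 61.9% in stimulated libraries, against 66.1, 67.2 and 62.7% in sham libraries. No test was run on shares.

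Dnajb1 has a pair of annotated transcripts with different starts. Dnajb1-202 (ENSMUST00000212300.1), which starts farther downstream, at position 83608553 of chromosome 8, took 15.1, 20.2 and 16.6% of the reads in stimulated libraries, against 5.26, 13.3 and 9.83% in sham libraries. Dnajb1-201 (ENSMUST00000005620.9), which starts at 83608193, took the remainder, 79.8 to 84.9% in stimulated and 86.7 to 94.7% in sham libraries. The RefSeq windows are set around starts close to both, 83608175 and 83608548, and neither window held the core of a heat shock element. Of Hsph1, the short coding transcript Hsph1-206 took 11.2, 9.74 and 10.7% in stimulated libraries, against 7.50, 8.15 and 8.99% in sham libraries, and Hsph1-211 took 7.24, 8.49 and 7.59% in stimulated libraries, against 10.4, 11.3 and 9.29% in sham libraries. The retained-intron transcript Hsph1-204 held 28.8 to 35.4% of the reads of Hsph1 in all 6 libraries, with the groups overlapping. In Cryab the share shifted between isoforms from library to library, as with ENSMUST00000216755.1 at 0 to 76.0%, and its isoforms could not be compared at these counts.

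**Figure D4:**
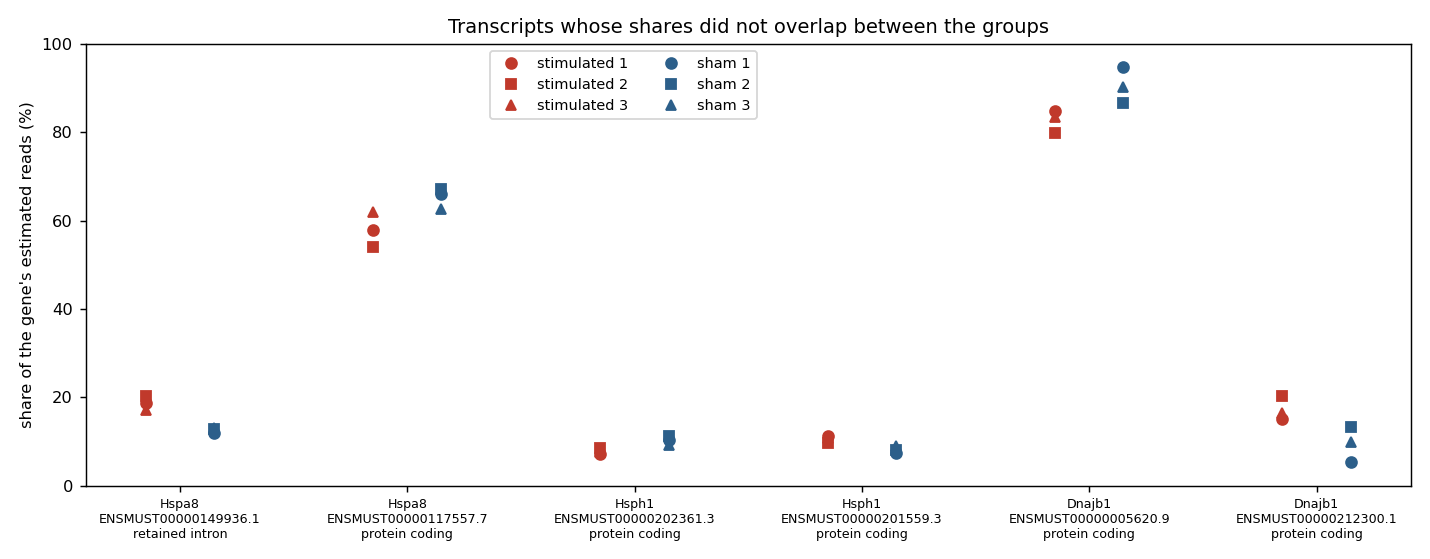
Share of the gene's estimated reads (vertical axis, in %) of the 6 transcripts of Hspa8, Hsph1 and Dnajb1 whose shares did not overlap, 1 point per library, stimulated left of sham. The widest separation in the plot is that of Hspa8-208, at 17.04 to 20.3% in stimulated and 11.9 to 13.1% in sham libraries.

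The wider chaperone system was described by lists of family members and partners. In 8 lists of other HSP70, HSP90, small heat shock, DnaJ and BAG genes, further cochaperones, chaperonins and heat shock factors, 0 members passed the test over all genes, and the list medians lay between -0.12 and 0.20, against -0.02 for all genes. Of the other HSP70 and HSP110 genes, 7 of 11 had a log2 fold change above 0, with a median of 0.05, and 5 of 11 without sham replicate 2, with a median of -0.08. Hspa5, which encodes the endoplasmic reticulum chaperone BiP, averaged 477 ± 10.1 CPM in stimulated and 417 ± 99.8 CPM in sham libraries (SD, n = 3 each). Hspa2, best known from male germ cells, had 20.3, 23.5 and 23.4 CPM in stimulated libraries, against 24.9, 37.5 and 32.9 CPM in sham libraries. By these deposited counts its groups did not overlap, and its log2 fold change was -0.51 (SE 0.24). From reads summed over transcripts the groups overlapped, at 20.2, 26.1 and 22.5 CPM in stimulated and 24.7, 35.8 and 36.5 CPM in sham libraries. The log2 fold change of Hspa2 from those reads was -0.49 (SE 0.23). Hspa12b, a distant relative expressed in endothelial cells, had -0.89 (SE 0.40), and -0.43 without sham replicate 2.

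Hsp90ab1, the constitutive HSP90 beta, averaged 2035 ± 398 CPM in stimulated and 1673 ± 476 CPM in sham libraries (SD, n = 3 each), and its log2 fold change was 0.28 (SE 0.32), or 0.014 (SE 0.35) from reads summed over transcripts and 0.10 without sham replicate 2. The median of the other HSP90 genes was 0.20, and 0.087 without that library. Among 4 tested small heat shock genes of the other 8, Hspb6, which is abundant in smooth muscle, had 0.22 (SE 0.38) and Hspb8, the partner of Bag3, -0.30 (SE 0.42). Summed reads gave -0.12 for Hspb6 and -0.63 for Hspb8, and Hspb8 had 0.10 without sham replicate 2, where all 4 lay above 0 with a median of 0.21 instead of 0.0053. Of 25 tested DnaJ genes, 12 lay above 0 and 13 below. Dnajb6, which suppresses protein aggregation and is mutated in a human limb-girdle muscular dystrophy, had 96.1, 90.6 and 107 CPM in stimulated libraries, against 65.3, 29.7 and 64.1 CPM in sham libraries by the deposited gene counts, without overlap, and a log2 fold change of 0.89 (SE 0.32, edgeR adjusted p = 0.638). Reads summed over its transcripts showed no such separation, with 61.7, 69.7 and 71.3 CPM in stimulated and 74.8, 59.8 and 74.97 CPM in sham libraries and a log2 fold change of -0.048 (SE 0.21). Bag5 had -0.75 (SE 0.37), and -0.35 without sham replicate 2, and Bag2 had 0.53 (SE 0.38).

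Of the 19 further cochaperones, 10 lay above 0 and 9 below, with a median of 0.01, and without sham replicate 2, 6 lay above 0, with a median of -0.05. Fkbp5, an HSP90 cochaperone that glucocorticoids induce, had 49.5, 63.0 and 94.7 CPM in stimulated libraries, against 15.4, 17.9 and 21.5 CPM in sham libraries. Its groups did not overlap, and its log2 fold change of 1.92 (SE 0.30) had an unadjusted p of 0.000129 and an adjusted p of 0.244 from edgeR. Ppid, the cyclophilin 40 of HSP90 complexes, had 0.42 (SE 0.28). Chaperonin genes lay above 0 in 8 of 10, with a median of 0.11, and in 4 of 10 with a median of -0.04 without sham replicate 2. Hspe1, the mitochondrial HSP10, had 0.57 (SE 0.38) and its partner Hspd1, HSP60, 0.32 (SE 0.31), which became 0.25 and 0.073 without sham replicate 2. Hsf1, the regulator of the heat shock response, had 35.3, 45.2 and 36.8 CPM in stimulated libraries, against 32.8, 35.3 and 39.2 CPM in sham libraries, with overlapping groups and a log2 fold change of 0.13 (SE 0.23).

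Neighbouring stress programmes gave 0 calls as well. Of 24 genes of endoplasmic reticulum chaperones and the unfolded protein response, 10 lay above 0 and 14 below, with a median of -0.06. Pdia3, a disulphide isomerase of glycoprotein folding, had 139, 138 and 144 CPM in stimulated libraries, against 161, 220 and 201 CPM in sham libraries, without overlap, and a log2 fold change of -0.47 (SE 0.24). From summed reads it had -0.27 (SE 0.24), and the groups overlapped. The glutathione-degrading enzyme gene Chac1 had -0.97 (SE 0.41), but was scarce, at means of 1.26 CPM in stimulated and 2.46 CPM in sham libraries. Of 21 immediate early genes, 4 lay above 0 and 17 below, with a median of -0.39, or -0.44 without sham replicate 2. Their groups did not overlap in 8 lower genes and 1 higher gene, where 5.89% and 6.12% of all genes did. Atf3, a stress-induced transcription factor, had 86.7, 97.8 and 88.3 CPM in stimulated libraries, against 139, 266 and 187 CPM in sham libraries, a log2 fold change of -1.12 (SE 0.29, edgeR adjusted p = 0.482).

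**Figure D5:**
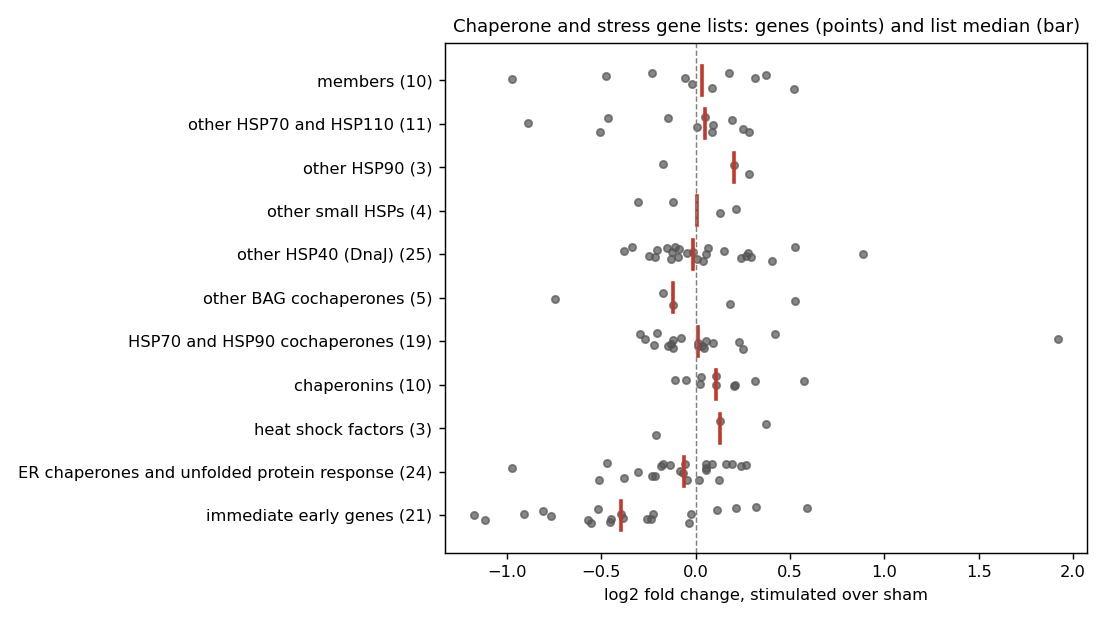
Log2 fold change, stimulated over sham (horizontal axis), of every tested gene (points, with vertical scatter for legibility) in the chaperone and stress lists, with the list median as a red bar and the number tested in brackets. The medians of the chaperone lists lie between -0.12 and 0.20, that of the immediate early genes is -0.39, and the point at 1.92 is Fkbp5.

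The genes outside the lists whose library profile was most like the mean profile of the 10 genes were Atp6ap2, Chmp1b, Oaz1, Ppm1g and Cdc5l. Likeness was the root mean square difference of centred log2 CPM over 6 libraries, from 0.03 for Atp6ap2 to 0.06 for Cdc5l. They were picked as the nearest of 10964 genes, so their nearness follows from that choice and is not a result. The members lay at 0.19 (Hspa1a) to 0.72 (Hspb1) from that mean profile. It averages genes that went opposite ways, as in sham replicate 2 with Dnajb1 at -1.23 and Hspb1 at 1.26, and so describes no single member.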

How the data were processed

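Estimated counts per gene, and per transcript estimated counts, TPM, length and effective length, were used as the authors deposited them, with columns named per the file headers. The submitters' processing notes name Trimmomatic 0.36, Salmon 0.8.2, edgeR and the build GRCm38. Their roles and settings were not given in the sources used here. In 100% of 14096 genes the deposited gene counts followed TPM times a gene and a library factor within 1%, and for the 10 members the transcript reads summed to 90.2 to 123% of them. Counts were rounded, filtered by filterByExpr (minimum count 10, total 15) and scaled by TMM. Groups were compared in R 4.3.3 with the quasi-likelihood F test of edgeR 4.0.16 in its robust form, adjusted by Benjamini-Hochberg over 26559 genes. The script was tested on simulated data. The SE is the log2 fold change divided by the square root of F, and intervals of 95% use the test's degrees of freedom.

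The members and lists were chosen with earlier results of these data known. Named genes are the members, up to 3 per list by unadjusted p with at least 1 CPM, the most abundant list gene and genes given in the text, and 5 genes by profile among genes whose mean log2 CPM was 3 or more. Hsp25-ps1 and other sequence copies were chosen after their values were seen. Not every such gene is named. Coordinates are from GENCODE mouse release 21 (GRCm38), where all 52 transcripts of the members matched in name and length. Words of 31 bases were compared over its transcripts. Replicates differed by a chi-square per gene of 30.0 to 106, so all 6 libraries were counted. No sequencing batch was labelled. Alternatives were DESeq2 1.42.0, limma voom (limma 3.58.1), RLE factors, 2 filters, summed reads, added paralogs, leaving out each library, a block for replicate number, a fit with no mitochondrial or rRNA genes and an adjusted p threshold of 0.1. Chosen after seeing the data were scaling without the members, limma on log2(TPM + 0.1) and Hspb1 with Hsp25-ps1.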

Additional observations from a re-analysis of the deposited data

How the results depend on the processing

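Under all alternatives run, 0 of the 10 members were called higher and 0 lower. The counts over all genes were less stable. DESeq2 called 74 higher and 153 lower, no filter gave 44 and 65, RLE factors 3 higher, reads summed over transcripts 1 higher, and a threshold of 0.1 gave 3 higher, where the reported counts are 0 and 0. With each library left out the calls over all genes were 0 to 1 higher. The cause was not tested. The sign of a member's log2 fold change turned for Hspa1b under limma voom (0.018) and without a filter (0.011). On the log2 TPM scale, which has no TMM scaling, it turned for Hspa8 (-0.22) and Dnaja1 (-0.13). The median of all genes on that scale, -0.20, is drawn toward 0 by the 0.1 added to each TPM. With libraries left out, Hspa1a ranged from -0.22 to 0.26, Hspa1b from -0.17 to 0.34, Hspa8 from -0.12 to 0.33, Dnaja1 from -0.042 to 0.33, Dnajb1 from -0.040 to 0.86 and Cryab from -1.15 to 0.16. Hsp90aa1, Hsph1, Bag3 and Hspb1 kept their sign under every alternative run. Same-numbered libraries of both groups were not shown to be pairs (correlations of their deviations 0.32, -0.16 and 0.13, and stimulated replicate 2 correlated best with sham replicate 3). With the replicate number as a block 0 genes were called and Hspb1 had -0.91, while Hspa1b had 0.019. Each group held 3 libraries, and Cryab, the scarcest member, had 39.1 to 188 estimated counts per library.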
